A study of Mus musculus with 26 samples.

Results

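HP1 proteins are readers of methylated lysine 9 of histone H3 (H3K9), the mark of constitutive heterochromatin such as the repeats around centromeres. They bind the mark through a chromodomain, and the H3K9 methyltransferases that they recruit can methylate neighbouring nucleosomes, so that readers and writers maintain the mark together. ATRX, a chromatin remodeler of the SWI/SNF family, binds HP1 and is found at the same pericentric regions in mouse fibroblasts. The genes described here are the 3 HP1 genes, Cbx5 (HP1α), Cbx1 (HP1β) and Cbx3 (HP1γ), 5 genes for H3K9 methyltransferases, Suv39h1, Suv39h2, Setdb1, Ehmt1 (GLP) and Ehmt2 (G9a), and Trim28 (KAP1), the corepressor that brings SETDB1 to its targets. They were chosen by name, and all 9 were found among the 53801 genes of the RNA-Seq files and in the GENCODE M21 annotation of the mouse genome GRCm38 (mm10).

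RNA was measured in female mouse embryonic fibroblasts (MEFs), a cultured connective tissue cell, in 3 groups of 2 libraries. WT cells were the parental MEFs, ATRXΔRBR cells carried a CRISPR deletion of the RNA-binding region (RBR) of endogenous ATRX and came from 1 clone with an in-frame deletion, and ATRX KD cells expressed an shRNA against ATRX under puromycin selection. In CUT&RUN, in which chromatin bound by an antibody is cut and released for sequencing, ATRX was profiled in WT and ATRXΔRBR, and EZH2, the methyltransferase of Polycomb repressive complex 2, and its product H3K27me3 in all 3 groups, which gave 16 peak lists. The study's methods call the replicates biological, without saying how the cultures were separated, and the p-values measure the spread between these libraries. The total of estimated counts was 13320635 and 11856636 for the WT libraries, 9574174 and 13694802 for the ATRXΔRBR libraries, and 9051693 and 21723647 for the libraries labelled ATRX KD, so the second ATRX KD library was the deepest. The raw file names of WT and ATRXΔRBR name the same sequencing run and those of ATRX KD name none, so run and genotype cannot be told apart in that comparison.

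Levels between genes are given in TPM, which corrects for transcript length and library size, and comparisons between groups in CPM, counts scaled to library size. Fibroblast genes were abundant in all 6 libraries, with a summed level of 9 markers of 9601 and 7285 TPM in WT, 11602 and 11559 TPM in ATRXΔRBR, and 11045 and 11613 TPM in ATRX KD. Vim, an intermediate filament gene, was the most abundant of them. Thy1 had 0 counts in every library, and Col3a1, a fibrillar collagen gene, had 937 and 733 counts in the WT libraries, 342 and 472 counts in the ATRXΔRBR libraries, and only 4 and 12 counts in the ATRX KD libraries. The 4 epithelial markers summed to at most 0.91 TPM and the 3 endothelial markers to at most 5.22 TPM, the latter in ATRXΔRBR, where the endothelial gene Pecam1 had 51 and 53 counts against 20 and 21 in WT and 0 and 0 in ATRX KD. Epithelial Krt18, endothelial Cdh5, macrophage Adgre1, pluripotent Pou5f1, and muscle Myod1 and Myog were at 0 in all 6 libraries. The 3 haematopoietic markers summed to 4.55 to 12.1 TPM, nearly all of it Cd68, a lysosomal gene that fibroblasts also express. Nanog had at most 5 counts and muscle Des at most 31. The part of these genes in the results below was not tested.

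Atrx itself (chrX:105797615-105929403) was measured first as a check of the labels. It was at 633 and 434 CPM in WT, 371 and 312 CPM in ATRXΔRBR, and 411 and 551 CPM in ATRX KD. The CPM of ATRXΔRBR lay below WT without overlap, while that of ATRX KD overlapped WT. The log2 fold change was -0.63 ± 0.22 (SE) in ATRXΔRBR (edgeR adjusted p = 0.14) and -0.15 ± 0.21 in ATRX KD (adjusted p = 0.60). Neither passed the threshold of 0.05 in this fit, although Atrx in ATRXΔRBR passed without a filter on low counts (edgeR adjusted p = 0.0081). The log2 fold change of Atrx in ATRXΔRBR was -0.88 without WT replicate 2 and -0.34 without WT replicate 1. In ATRX KD it was -0.39 without WT replicate 2 and turned to 0.14 without WT replicate 1. With a WT library left out, here and below, the lone WT library is assumed to vary like the pair it is compared with. In TPM, ATRXΔRBR (175 and 124 TPM) overlapped WT (233 and 141 TPM). TPM went the other way in ATRX KD, with 331 and 512 TPM, beside an effective transcript length of 2803 and 2368 bases against 4936 and 6255 bases in WT. In the fit with no library left out, a fall of Atrx RNA was thus not called in ATRX KD. The direction of its fold change depended on which WT library was kept, and protein was not measured in these files. The study assessed its knockdown lines by western blot and describes ATRX protein as depleted in them, but the blots were not analysed here. Each direction given below for ATRX KD is that of the libraries labelled so.

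Cbx5 was the member with the most ATRX peaks, and its start is shown together with 3 others for which the peak lists hold data. The TSS was taken as the outermost start of the gene, and a peak was counted there if it overlapped, by 1 bp or more, the 2 kb on either side. The bases just before the RefSeq start of 4 genes follow, 5′ to 3′ on the strand of the gene, on GRCm38.p6. They end before the RefSeq start and hold no base that GENCODE M21 places in an exon. Capitals mark the GC box, spelled GGGCGG, on either strand. They also mark the CCAAT box by these letters alone, on either strand. The TATA motif, spelled TATAAA and searched on both strands, is in none of them. No match of one motif overlaps one of another. Of the 32851 promoters in the RefSeq table, 32.7% hold a GC box, 33.8% a CCAAT box and 12.4% the TATA motif in the 250 bases before the start.
Cbx5, chr15:103239853-103240102, minus strand, shown for its ATRX peaks in all 4 lists: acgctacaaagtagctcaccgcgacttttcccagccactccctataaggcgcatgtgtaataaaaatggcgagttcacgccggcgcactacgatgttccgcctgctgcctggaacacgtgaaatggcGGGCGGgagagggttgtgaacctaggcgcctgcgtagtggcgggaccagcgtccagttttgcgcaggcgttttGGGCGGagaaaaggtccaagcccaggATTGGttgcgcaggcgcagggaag
Suv39h1, chrX:8074761-8075010, minus strand, shown for its ATRX peak in 1 ATRXΔRBR list: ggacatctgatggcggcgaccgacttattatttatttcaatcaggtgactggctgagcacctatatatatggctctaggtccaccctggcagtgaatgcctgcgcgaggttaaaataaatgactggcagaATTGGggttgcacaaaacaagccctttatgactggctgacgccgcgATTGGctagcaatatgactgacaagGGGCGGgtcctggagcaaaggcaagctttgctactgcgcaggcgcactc
Suv39h2, chr2:3475032-3475236, minus strand, shown for its ATRX peak in 1 WT list: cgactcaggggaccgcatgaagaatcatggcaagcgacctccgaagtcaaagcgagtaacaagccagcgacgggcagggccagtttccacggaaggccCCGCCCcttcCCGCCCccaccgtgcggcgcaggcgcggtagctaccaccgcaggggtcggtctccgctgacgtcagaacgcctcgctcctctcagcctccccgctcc
Trim28, chr7:13023902-13024151, plus strand, shown for its EZH2 peaks in all 6 lists: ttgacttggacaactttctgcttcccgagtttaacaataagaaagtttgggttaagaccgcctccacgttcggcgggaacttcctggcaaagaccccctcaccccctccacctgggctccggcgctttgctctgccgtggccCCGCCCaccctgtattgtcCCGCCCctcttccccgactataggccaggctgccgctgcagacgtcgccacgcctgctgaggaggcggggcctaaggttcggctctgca
GC boxes numbered 2 in Cbx5, 1 in Suv39h1, 2 in Suv39h2 and 2 in Trim28, and CCAAT boxes 1 in Cbx5 and 2 in Suv39h1. CpG dinucleotides numbered 22 in the 250 bases of Cbx5, 11 in the 250 of Suv39h1, 22 in the 205 of Suv39h2 and 17 in the 250 of Trim28, against a median of 6 per 250 bases over all promoters of the table. A match of letters describes the window and is not evidence of a bound factor.

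The 9 genes were all expressed in WT MEFs but at levels that spanned a wide range, compared per transcript length in TPM. Trim28 was highest with 457 ± 32.7 TPM (SD, n = 2). Ehmt2 (161 ± 9.57 TPM), Cbx5 (158 ± 30.5 TPM) and Cbx1 (139 ± 9.16 TPM) followed, and neighbours in this order overlapped between their libraries, so that neighbours could not be ranked, although both libraries of Ehmt2 were above both of Cbx1. Suv39h1 (73.5 ± 8.42 TPM), Setdb1 (39.3 ± 9.17 TPM) and Ehmt1 (32.0 ± 0.29 TPM) came next, each with both libraries below both of the gene before it. Suv39h2 (25.6 ± 1.53 TPM) and Cbx3 (22.5 ± 8.32 TPM) were lowest and overlapped each other. Of the pairs of paralogs, the level of Suv39h1 was above that of Suv39h2 in all 6 libraries, and that of Ehmt2 above that of Ehmt1 in all 6.

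HP1α, the product of Cbx5 (ENSMUSG00000009575, chr15:103191544-103239816, minus strand), is the HP1 protein most closely tied to pericentric heterochromatin. Cbx5 RNA was at 599 and 626 CPM in WT, 1006 and 745 CPM in ATRXΔRBR, and 815 and 789 CPM in ATRX KD. Both ATRXΔRBR and both ATRX KD libraries lay above both WT libraries, and the ATRXΔRBR libraries were far apart from each other. In ATRX KD, Cbx5 was higher by a log2 fold change of 0.38 ± 0.10 (SE, 95% confidence interval 0.14 to 0.63, edgeR adjusted p = 0.028). DESeq2 also called it (adjusted p = 0.030). With all 6 libraries in a single fit the adjusted p was 0.096, without ATRX KD replicate 1 it was 0.37 and without ATRX KD replicate 2 it was 0.29, at log2 fold changes of 0.38, 0.36 and 0.41. In ATRXΔRBR the log2 fold change was 0.52 ± 0.19 (0.085 to 0.96), with an edgeR adjusted p of 0.16, so Cbx5 was not called there. That fold change was 0.29 without ATRXΔRBR replicate 1 and 0.73 without ATRXΔRBR replicate 2. On the TPM scale, both ATRX KD libraries (214 and 212 TPM) were above both WT libraries (137 and 180 TPM), whereas the ATRXΔRBR libraries (259 and 167 TPM) overlapped WT.

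HP1β, the product of Cbx1 (ENSMUSG00000018666, chr11:96789127-96808640, plus strand), binds the same mark. Cbx1 was at 175 and 140 CPM in WT, 117 and 128 CPM in ATRXΔRBR, and 168 and 173 CPM in ATRX KD. Both ATRXΔRBR libraries were below both WT libraries, while ATRX KD lay within the WT range. The log2 fold change was -0.35 ± 0.18 in ATRXΔRBR (adjusted p = 0.33) and 0.11 ± 0.14 in ATRX KD (adjusted p = 0.57), and neither was called. The ATRXΔRBR value was -0.18 without WT replicate 1 and -0.50 without WT replicate 2. Without WT replicate 1 the gene was called in ATRX KD (0.27, adjusted p = 0.0016), and without WT replicate 2 the value was -0.036. The ratio of Cbx5 to Cbx1, each in TPM, was 0.94 and 1.36 in the WT libraries, 2.25 and 1.47 in the ATRXΔRBR libraries and 1.20 and 1.22 in the ATRX KD libraries. The ratio of their CPM was 3.43 and 4.48 in the WT libraries, 8.57 and 5.82 in the ATRXΔRBR libraries and 4.85 and 4.56 in the ATRX KD libraries. On both scales both ATRXΔRBR libraries were above both WT libraries, while ATRX KD lay between the WT values in TPM and above them in CPM.

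HP1γ, the product of Cbx3 (ENSMUSG00000029836, chr6:51470360-51483704, plus strand), is found in euchromatin as well as heterochromatin. Cbx3 had few counts, with 163 and 193 counts in WT, 224 and 258 counts in ATRXΔRBR, and 159 and 276 counts in ATRX KD, which corresponded to 12.5 and 16.1, 23.5 and 18.8, and 17.3 and 12.8 CPM. The CPM of ATRXΔRBR lay above WT without overlap, and that of ATRX KD overlapped WT. In TPM, ATRXΔRBR (39.5 and 26.7 TPM) overlapped WT (16.6 and 28.4 TPM) as well. The log2 fold change was 0.57 ± 0.23 in ATRXΔRBR (0.046 to 1.10, edgeR adjusted p = 0.20) and 0.06 ± 0.22 in ATRX KD (adjusted p = 0.87). Of the stretches of 38 bases in the Cbx3 transcripts, the read length that the effective lengths imply, 7.82% also occurred in transcripts of other genes, chiefly the processed pseudogenes Cbx3-ps6, which had 0 counts in all libraries, and Cbx3-ps7. Cbx3-ps7 had counts of 22 and 26 in the WT libraries, 11 and 24 in the ATRXΔRBR libraries and 28 and 66 in the ATRX KD libraries. The share is over all annotated transcripts of Cbx3 together. The shared stretches numbered 477, beside an effective length of Cbx3 of 1152 to 1366 bases across the libraries. Reads of Cbx3 and its pseudogenes may be split between them, so the level of Cbx3 is uncertain, to an extent that the share does not measure.

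SUV39H1 and SUV39H2 set H3K9 trimethylation at pericentric heterochromatin. Suv39h1 (ENSMUSG00000039231, chrX:8061171-8074760, minus strand) was at 101 and 108 CPM in WT, 104 and 114 CPM in ATRXΔRBR, and 105 and 108 CPM in ATRX KD. All groups overlapped, with log2 fold changes of 0.07 ± 0.17 in ATRXΔRBR (-0.32 to 0.46, adjusted p = 0.87) and 0.02 ± 0.12 in ATRX KD (-0.25 to 0.29, adjusted p = 0.91). Suv39h2 (ENSMUSG00000026646, chr2:3455815-3475031, minus strand) was at 31.2 and 32.1 CPM in WT, 24.6 and 24.6 CPM in ATRXΔRBR, and 40.3 and 35.4 CPM in ATRX KD. ATRXΔRBR lay below and ATRX KD above WT, without overlap in either case. The log2 fold changes were -0.35 ± 0.17 (-0.76 to 0.048, adjusted p = 0.31) and 0.25 ± 0.14 (-0.081 to 0.58, adjusted p = 0.21), and neither passed the test. Suv39h2 overlaps Dclre1c, a DNA repair nuclease gene on the opposite strand, which had counts of 63 and 130 in the WT libraries, 88 and 63 in the ATRXΔRBR libraries and 127 and 328 in the ATRX KD libraries. The libraries were made with a directional kit, but whether counting used strand is not given in the sources used here, so reads of the overlap may belong to either gene.

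SETDB1 trimethylates H3K9 at repeats and imprinted genes, and TRIM28 links it to zinc finger proteins with a KRAB domain. Setdb1 (ENSMUSG00000015697, chr3:95323525-95357202, minus strand) was at 84.8 and 110 CPM in WT, 118 and 93.1 CPM in ATRXΔRBR, and 116 and 107 CPM in ATRX KD. The groups overlapped, with log2 fold changes of 0.12 ± 0.21 in ATRXΔRBR (adjusted p = 0.81) and 0.19 ± 0.15 in ATRX KD (adjusted p = 0.39). Without WT replicate 2, Setdb1 was called in ATRX KD (0.39, adjusted p = 3.02e-05), and without WT replicate 1 the value was -0.012. Of its 38-base stretches, 9.26% occurred in other genes, mainly in Gm4349, which had 2 to 9 counts a library. Trim28 (ENSMUSG00000005566, chr7:12999114-13031035, plus strand) was at 303 and 253 CPM in WT, 262 and 325 CPM in ATRXΔRBR, and 271 and 270 CPM in ATRX KD. Its log2 fold changes were 0.09 ± 0.18 (adjusted p = 0.84) and -0.04 ± 0.13 (adjusted p = 0.83), and the groups overlapped. Trim28 was called lower in ATRX KD without WT replicate 2 (-0.16, adjusted p = 0.041), and without WT replicate 1 the value was 0.081.

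EHMT1 and EHMT2 form a heterodimer that sets H3K9 mono- and dimethylation in euchromatin. Ehmt1 (ENSMUSG00000036893, chr2:24789928-24919614, minus strand) was at 66.9 and 63.0 CPM in WT, 70.9 and 64.8 CPM in ATRXΔRBR, and 88.8 and 95.8 CPM in ATRX KD. Both ATRX KD libraries were above all 4 others, and ATRXΔRBR overlapped WT. Ehmt1 was higher in ATRX KD by a log2 fold change of 0.50 ± 0.12 (0.22 to 0.79, edgeR adjusted p = 0.019, DESeq2 adjusted p = 0.017) and was at 0.07 ± 0.17 in ATRXΔRBR (adjusted p = 0.87). The adjusted p in ATRX KD was 0.14 without ATRX KD replicate 1 and 0.27 without ATRX KD replicate 2, at log2 fold changes of 0.55 and 0.45. Ehmt2 (ENSMUSG00000013787, chr17:34898469-34914052, plus strand) was at 238 and 185 CPM in WT, 240 and 269 CPM in ATRXΔRBR, and 181 and 213 CPM in ATRX KD. Both ATRXΔRBR libraries lay above WT, the lower of them by little, and ATRX KD overlapped WT. The log2 fold changes were 0.27 ± 0.18 (adjusted p = 0.47) and -0.11 ± 0.16 (adjusted p = 0.63). The ATRXΔRBR value was 0.47 without WT replicate 1 and 0.11 without WT replicate 2. Without WT replicate 2, Ehmt2 was called lower in ATRX KD (-0.27, adjusted p = 0.00064), and without WT replicate 1 the value was 0.078.

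**Figure D1:**
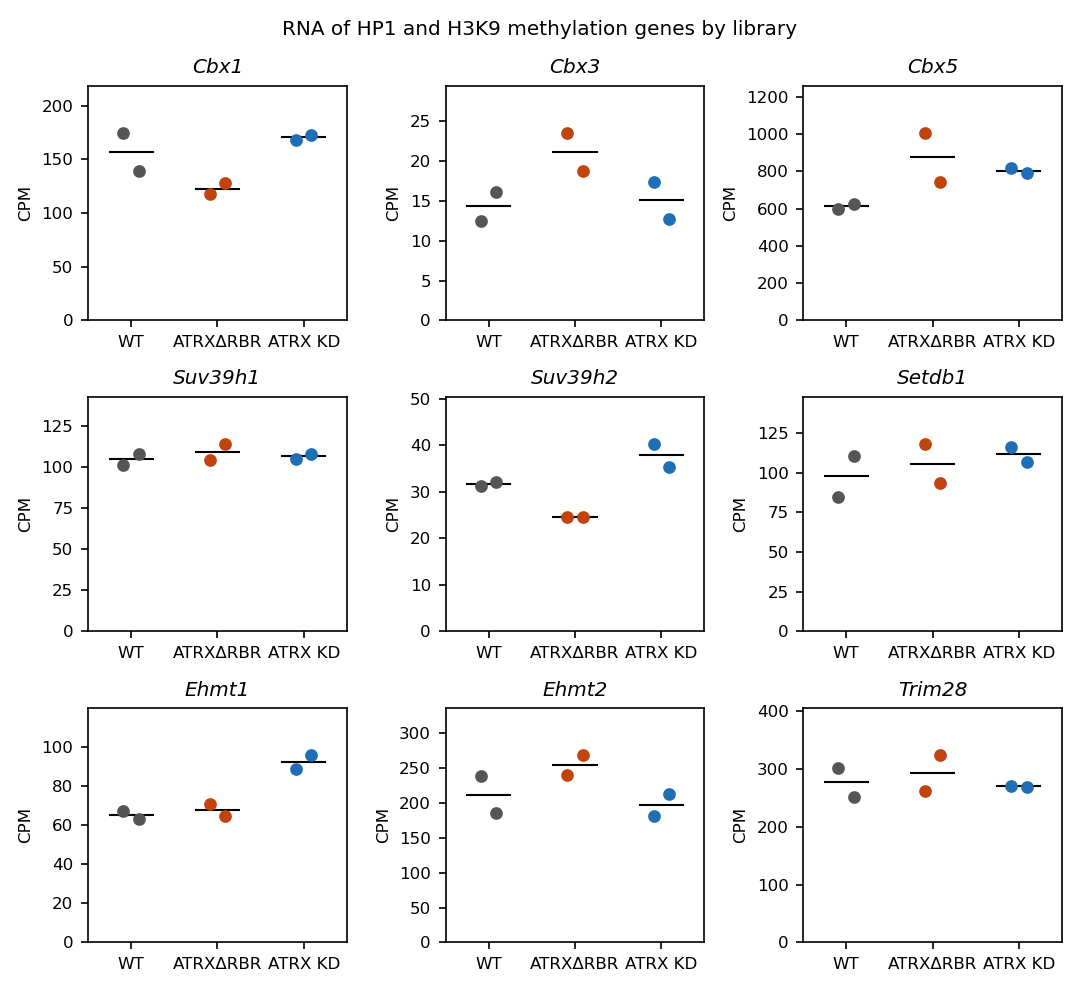
CPM (vertical axes, each from 0) of the 9 genes in the WT, ATRXΔRBR and ATRX KD libraries (horizontal axes); points are libraries and bars are the means of 2. Cbx5 and Ehmt1 in ATRX KD lay above both WT libraries, at 815 and 789 CPM and at 88.8 and 95.8 CPM.

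Counted together, 0 of the 9 genes were called in ATRXΔRBR, where 1119 of 16334 genes tested were called (6.85%), of which 455 were higher (2.79%) and 664 lower (4.07%). DESeq2 also called 0 of the 9, and 2 of the 9, Cbx3 and Cbx5, had an unadjusted p under 0.05 in edgeR, as did 20.6% of all genes tested. In ATRX KD, 2 of 9 (22.2%), Cbx5 and Ehmt1, were called and both were higher. This share is below the 33% of the 16785 genes tested that were called there, of which 15.2% were higher and 17.8% lower. The median log2 fold change of the 9 was 0.09 in ATRXΔRBR and 0.11 in ATRX KD, against -0.02 over all genes tested in either comparison. The log2 fold change was above 0 for 7 of 9 in each, with Cbx1 and Suv39h2 below 0 in ATRXΔRBR and Ehmt2 and Trim28 below 0 in ATRX KD. Both comparisons share the WT libraries, so these values are not independent.

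**Figure D2:**
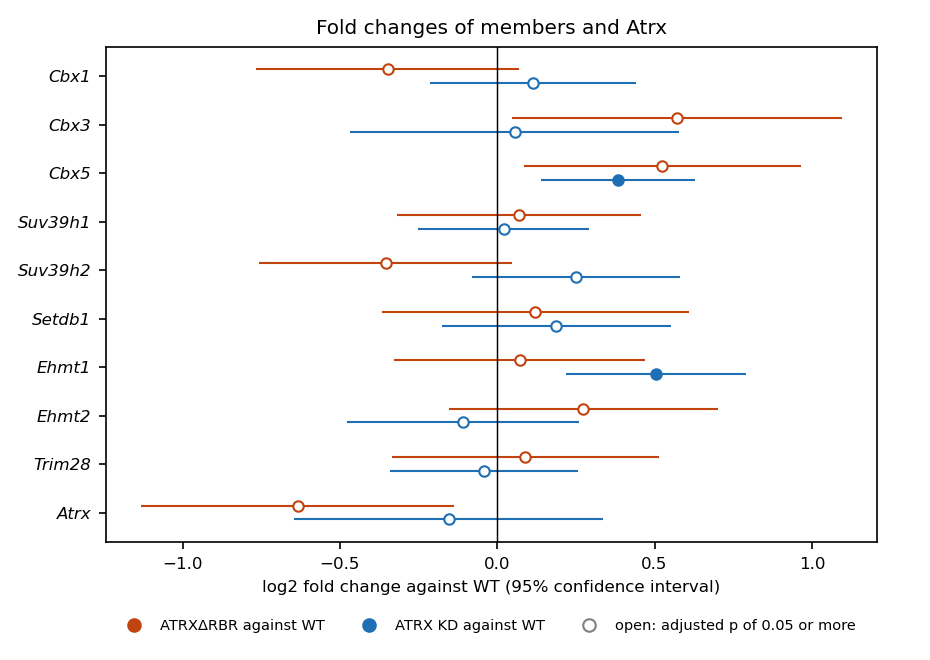
log2 fold change against WT (horizontal axis, with 95% confidence intervals from edgeR) of the 9 genes and Atrx, in ATRXΔRBR (red) and ATRX KD (blue); filled points have an adjusted p under 0.05. Only Cbx5 and Ehmt1 in ATRX KD are filled, at 0.38 and 0.50.

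On the TPM scale, the difference in ATRX KD was above the edgeR fold change for every member, but the values of all genes moved up too. The median of all genes tested moved by 0.17 on the log2(TPM + 1) scale there, against 0.04 in ATRXΔRBR, so differences on that scale are read relative to it. Cbx1 was at 145 and 132 TPM in WT and 178 and 175 TPM in ATRX KD, without overlap, a difference of 0.35 on the log2(TPM + 1) scale. Suv39h1 was at 67.5 and 79.4 TPM in WT and 87.7 and 89.2 TPM in ATRX KD, a difference of 0.27. Cbx3 differed by 0.34, Suv39h2 by 0.39, Setdb1 by 0.42, Cbx5 by 0.44 and Ehmt1 by 0.61, while Trim28 differed by 0.18 and Ehmt2 by -0.06. Among genes with a mean of 5 TPM or more the median shift was 0.21. Ehmt2 was below both shifts, Trim28 lay between them, and the other 7 members were above both, Suv39h1 by the least.

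The other genes of the H3K9 pathway were read from lists of partners and of erasers. Of 32 such genes tested in ATRXΔRBR, 1 was called (3.12%), Kdm7a, which encodes a demethylase of H3K9 and H3K27. Kdm7a was at 13.5 and 17.4 CPM in WT, 41.5 and 29.1 CPM in ATRXΔRBR, and 29.8 and 24.2 CPM in ATRX KD. It was higher in ATRXΔRBR by a log2 fold change of 1.20 ± 0.24 (adjusted p = 0.025) and in ATRX KD by 0.80 ± 0.19 (adjusted p = 0.020). In ATRX KD, 10 of 34 were called higher and 1 lower (32.4% in all, near the 33% of all genes), and the median log2 fold change of the 34 was 0.23.

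Among partners of SETDB1, Fam208a (TASOR) and Morc2a, which act with the HUSH silencing complex, were higher in ATRX KD by 0.80 ± 0.13 and 0.75 ± 0.15 (adjusted p = 0.0039 and 0.0085), and the other 7 of 9 were not called. Fam208a was at 35.6 and 36.8 CPM in WT, 65.3 and 51.9 CPM in ATRXΔRBR, and 64.8 and 61.6 CPM in ATRX KD. Both ATRXΔRBR libraries were above WT too, at a log2 fold change of 0.70 ± 0.19 that missed the threshold (adjusted p = 0.074) but passed it with all 6 libraries in a single fit (edgeR adjusted p = 0.022). The lowest value of this list in ATRXΔRBR was Mphosph8, the chromodomain subunit of HUSH, at -0.24 ± 0.20, and in ATRX KD also Mphosph8 at -0.11 ± 0.17. The highest value in ATRX KD was Atf7ip2 at 1.40 ± 0.95, which was not called. Atf7ip2 was barely detected, with counts of 2 and 2 in WT and 7 and 5 in ATRX KD.

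Of the 5 partners of G9a and GLP, 0 were called in ATRXΔRBR by edgeR or DESeq2, and 0 had an unadjusted p under 0.05. Their values ran from -0.22 ± 0.17 (Cdyl, a chromodomain corepressor) to 0.32 ± 0.18 (Wiz, a zinc finger partner of the heterodimer). In ATRX KD, the zinc finger genes Prdm2 and Zfp462 were higher by 0.83 ± 0.21 and 0.56 ± 0.13 (adjusted p = 0.024 and 0.019), and the lowest was Zfp644 at -0.15 ± 0.15.

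Of the 9 partners of HP1, 0 were called by edgeR in ATRXΔRBR. The highest there was Trim24, a TRIM28 relative, at 0.74 ± 0.18, with an edgeR adjusted p of 0.051 and a DESeq2 adjusted p of 0.017, so that DESeq2 called it, and it was the 1 gene of the list with an unadjusted p under 0.05 in edgeR. The lowest was Chaf1b at -0.30 ± 0.17. In ATRX KD, 3 were called higher, Adnp, which forms the ChAHP complex with CHD4 and HP1 (0.92 ± 0.17, adjusted p = 0.0072), Pogz (0.45 ± 0.14, adjusted p = 0.047) and Chd4 (0.46 ± 0.13, adjusted p = 0.039). Pogz was not called with all 6 libraries in a single fit (edgeR adjusted p = 0.063). Chaf1b, a subunit of the histone chaperone CAF-1, was lower, at 106 and 113 CPM in WT and 78.5 and 77.2 CPM in ATRX KD (-0.50 ± 0.12, adjusted p = 0.018).

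Of the 11 H3K9 demethylase genes, 10 were tested in ATRXΔRBR and 11 in ATRX KD. Kdm7a apart, Phf2 (0.58 ± 0.12, adjusted p = 0.011) and Kdm4c (0.58 ± 0.18, adjusted p = 0.044) were higher in ATRX KD. Kdm3b was at 0.53 ± 0.19 there and was called by DESeq2 (adjusted p = 0.032) but not by edgeR (adjusted p = 0.065). The lowest value was Kdm1a (LSD1) at -0.18 ± 0.16 in ATRXΔRBR and Kdm3a at -0.06 ± 0.22 in ATRX KD, and the highest in ATRX KD was Kdm4d at 1.24 ± 0.80, none of them called. Kdm4d was barely detected, with counts of 6 and 1 in WT and 7 and 13 in ATRX KD. Cbx2, Cbx6, Cbx7 and Cbx8 encode Polycomb proteins, which read H3K27 methylation with a related chromodomain. Of these 4, 0 were called in ATRXΔRBR by edgeR or DESeq2, where 1 had an unadjusted p under 0.05, and the values ran from 0.11 ± 0.18 (Cbx2) to 0.50 ± 0.23 (Cbx6). In ATRX KD, Cbx7 was lower (17.44 and 18.96 CPM in WT, 11.56 and 13.06 CPM in ATRX KD, -0.56 ± 0.17, adjusted p = 0.040), where DESeq2 did not call it (adjusted p = 0.11), and the highest was Cbx8 at 0.39 ± 0.22.

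**Figure D3:**
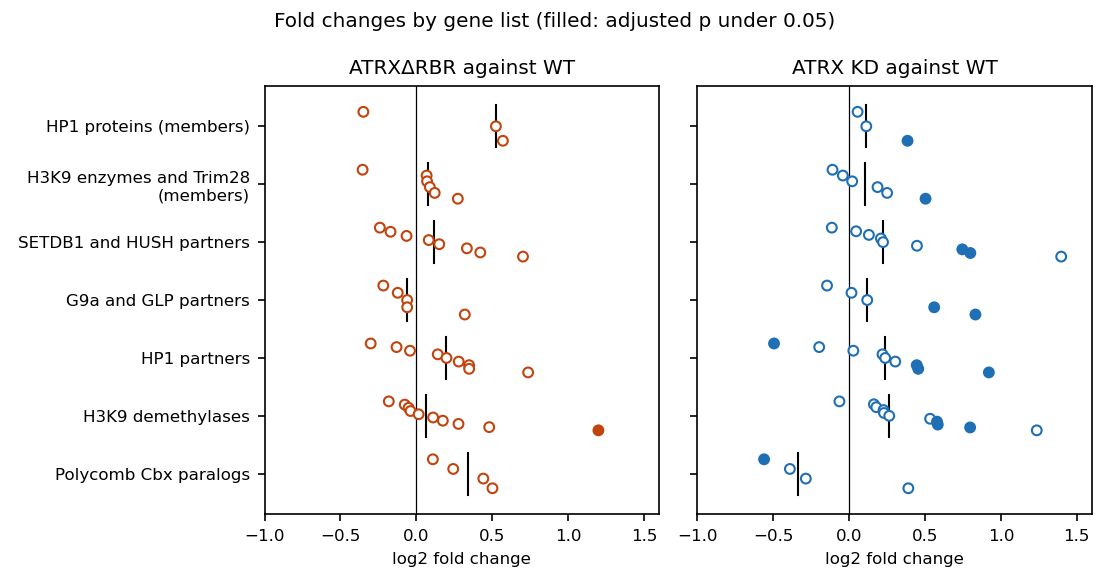
log2 fold change against WT (horizontal axes) of each gene of 7 lists (rows) in ATRXΔRBR (left) and ATRX KD (right); points are genes, filled where the adjusted p was under 0.05, and bars are medians. Kdm7a is the 1 filled point on the left, and the 9 members have none there.

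ATRX peaks were found at the TSS of 3 of the 9 genes. Cbx5 had one in all 4 ATRX lists, which cover both groups, Suv39h2 in WT replicate 1 alone and Suv39h1 in ATRXΔRBR replicate 1 alone. Of 9571 protein-coding genes with at least 5 TPM in both WT libraries, 3.08% had an ATRX peak at the TSS in all 4 lists and 20.6% in exactly 1 list. None was found in any ATRX list for 60.5% of them, as for 6 of the 9 genes. By list, 2 and 1 of the 9 genes had a peak in WT and 2 and 1 in ATRXΔRBR, beside 23.0% and 10.8% and 26.9% and 9.17% of those expressed genes. The lists held 9141 and 4781 peaks in WT and 6274 and 4813 in ATRXΔRBR, and the first replicate had more than the second in both groups. Read depth cannot be taken from peak lists, so peaks seen in 1 replicate only, as at Suv39h1 and Suv39h2, were not read as a difference between genotypes.

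At Cbx5, the ATRX peaks over or nearest to the TSS were chr15:103239263-103240182 and chr15:103239408-103240352 in WT and chr15:103238671-103240601 and chr15:103239368-103239559 in ATRXΔRBR. The first 3 overlap the 250 bases printed above, and the last lies 257 bp from the TSS inside the gene. Their widths were 920, 945, 1931 and 192 bp, their fold enrichments over the local background, as MACS2 gives them, 3.76, 4.09, 5.38 and 4.46, and their −log10 q-values 1.93, 1.96, 5.75 and 2.18. At a q-value of 0.01 or less, neither WT list kept its peak and both ATRXΔRBR lists did. The same window holds the start of Hnrnpa1, a splicing factor gene on the opposite strand (chr15:103240432-103246692) whose TSS is 616 bp away, so peaks there cannot be given to one gene. Hnrnpa1 had counts of 1871 and 1735 in the WT libraries, 1802 and 2731 in the ATRXΔRBR libraries and 695 and 1645 in the ATRX KD libraries. Its log2 fold change was 0.44 ± 0.16 in ATRXΔRBR (adjusted p = 0.17) and -0.93 ± 0.11 in ATRX KD (adjusted p = 0.0016), where Cbx5 was higher.

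**Figure D4:**
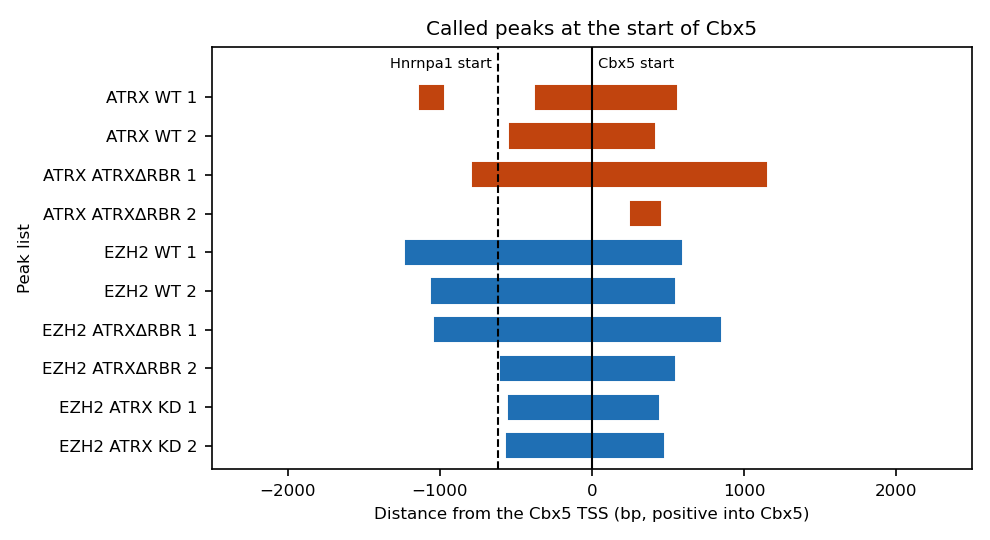
Peaks called in the 4 ATRX (red) and 6 EZH2 (blue) lists (rows) by their distance in bp from the Cbx5 TSS (horizontal axis, positive into Cbx5); lines mark the starts of Cbx5 and, dashed, of Hnrnpa1. Peaks lie at the start in all 10 lists, and the ATRX peak of ATRXΔRBR replicate 2 is the narrowest of those nearest to the start, at 192 bp.

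EZH2 peaks were present at the TSS of most of the 9 genes in WT and ATRXΔRBR. By list, 7 and 7 of 9 had one in WT and 7 and 6 of 9 in ATRXΔRBR, but 2 and 2 of 9 in ATRX KD. Over the expressed genes the shares were 84.5% and 78.5%, 87.2% and 58.0%, and 31.6% and 41.5%. The whole lists were shorter too, with 5376 and 7093 peaks in ATRX KD against 22316 and 18351 peaks in WT and 22418 and 11408 peaks in ATRXΔRBR, and genotype and list length cannot be told apart here. Cbx1, Suv39h1, Suv39h2, Ehmt1 and Ehmt2 had an EZH2 peak in all 4 WT and ATRXΔRBR lists and in neither ATRX KD list, a pattern that 17.8% of the expressed genes had. Cbx5 had one in all 6 lists, as 24.2% of the expressed genes did, and Cbx3 in 5, all but ATRXΔRBR replicate 2. The start of Cbx3 is 466 bp from that of Hnrnpa2b1, a second hnRNP gene on the opposite strand, which had counts of 16601 and 16960 in the WT libraries, 12697 and 17421 in the ATRXΔRBR libraries and 11699 and 27463 in the ATRX KD libraries (adjusted p = 0.93 and 0.60).

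Setdb1 and Trim28 had no EZH2 peak at the outermost start in any list, as did 8.83% of the expressed genes. For Trim28 this rested on the annotation, since 1 transcript starts far upstream, 922 bp from the start of Slc27a5, a bile acid ligase gene with 0 to 2 counts a library. At the start whose upstream bases are printed above, an EZH2 peak was present in all 6 lists, for example chr7:13023991-13025206 in WT replicate 1 and chr7:13024149-13024349 in ATRX KD replicate 1. With every annotated transcript start considered, an EZH2 peak was counted for 8 and 8 of the 9 genes in WT, for 8 and 7 of them in ATRXΔRBR and for 3 and 3 of them in ATRX KD. Of all expressed genes, 89.4% and 83.2% had one in the WT lists, 92.0% and 61.9% in the ATRXΔRBR lists and 33.8% and 44.2% in the ATRX KD lists. Setdb1 had no peak of ATRX, EZH2 or H3K27me3 at any of its starts in any of the 16 lists. The start of Ehmt2 lies 204 bp from that of C2, a complement gene with 2 to 7 counts a library, and that of Setdb1 lies 1072 bp from that of Gm37500, which had at most 2.

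H3K27me3 peaks were found at none of the 9 genes, neither at a TSS nor over the gene body, in any of the 6 lists. Of the expressed genes, 92% had none at the TSS in any list, and by list a peak was there for 3.21% and 3.70% in WT, for 5.79% and 5.20% in ATRXΔRBR and for 1.41% and 1.14% in ATRX KD. An absent peak says that none was called at the depth of that list, and these files do not hold that depth.

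**Figure D5:**
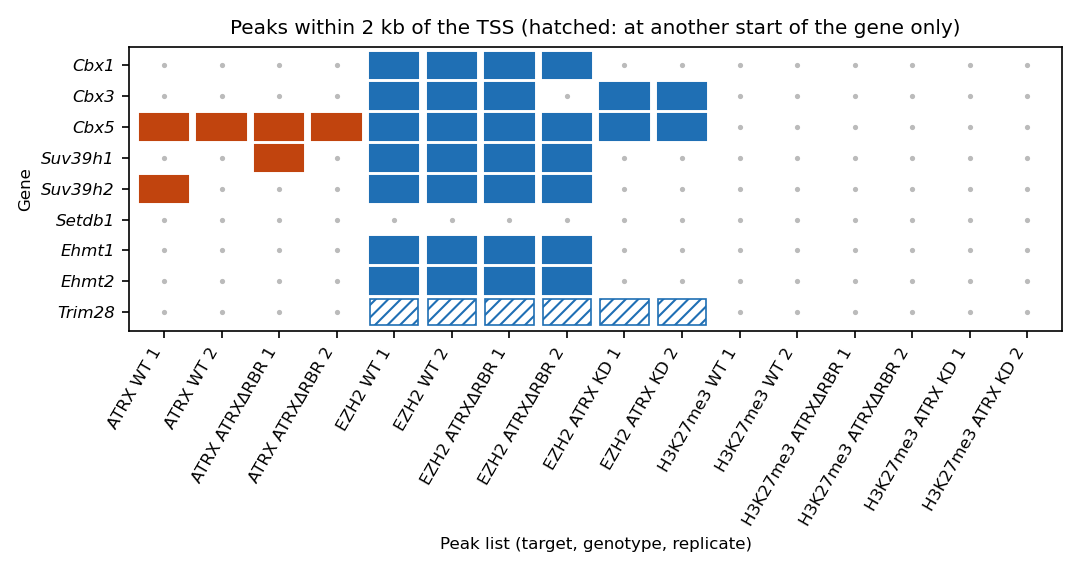
Presence of a peak within 2 kb of the TSS for the 9 genes (rows) in the 16 peak lists (columns: target, genotype, replicate); filled squares are peaks at the outermost start, hatched squares peaks at another annotated start only, and dots no peak. Cbx5 has ATRX peaks in all 4 lists, and no gene has an H3K27me3 peak.

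The genes whose RNA profile was most like that of each HP1 gene were found by the root mean square distance of log2(CPM + 1) values, each centred on its mean over the 6 libraries, among 10671 genes with a mean of at least 5 TPM. They were Fzd8 (distance 0.021) and Limd1 (0.040) for Cbx1, Lrp12 (0.079) and March6 (0.10) for Cbx3, and Sp1 (0.044) and Hipk1 (0.050) for Cbx5. Within a distance of 0.1 lay 119 genes for Cbx1, 50 for Cbx5 and 1, Lrp12, for Cbx3. The 6 points come from libraries that differ in depth.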

How the data were processed

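The 9 genes and the lists were chosen with earlier results of these data known. For RNA-Seq, the authors aligned poly(A)-selected reads with STAR and deposited estimated counts per gene (expected counts) from RSEM and, from the same tool, TPM. For CUT&RUN, the authors mapped reads to mm10 with Bowtie2, ran MACS2 in its broad mode library by library and deposited the position, the fold enrichment (a ratio to local background) and the −log10 p and −log10 q of each peak, with a score that was not used. Tool versions are not given here. IgG libraries were not analysed here.

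A gene entered a comparison if its unrounded estimated counts summed to over 10 in the 4 libraries. Rounded counts were then tested with the quasi-likelihood test of edgeR 4.0.16 (R 4.3.3, TMM, Benjamini-Hochberg adjusted p under 0.05). The fit was tested on simulated data. SE and 95% confidence intervals were derived from its F statistic. CPM used TMM factors over 6 libraries. DESeq2 1.42.0 and the other alternatives are given in the closing section. Identifiers were matched without version. Of the 53801 in the files, 53706 were in GENCODE M21. 2810474O19Rik was matched as Resf1 through RefSeq synonyms. All 9 members had a RefSeq promoter. Named genes were the members, Atrx, every called gene and the extremes of each other list, close or overlapping genes, pseudogenes of members, and the 2 nearest profiles of each HP1 gene. Depth ran from 9051693 to 21723647 estimated counts a library. Tables and figures were made with Python 3.11.15 and matplotlib 3.10.9. A further gene of the lists is not reported here.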

Additional observations from a re-analysis of the deposited data

How the results depend on the processing

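With 2 libraries a group, single libraries decided many calls. In ATRXΔRBR the 9 genes gave 0 calls with each other setting but the crossed pairing below, and the number of all genes called was 1979 without a filter on low counts, 597 with at least 10 counts in every library and 1812 with all 6 libraries in one fit, against 1119. That fit also called Fam208a (edgeR adjusted p = 0.022), Trim24 (0.011) and Kdm4a (0.041) higher in ATRXΔRBR. In ATRX KD, where 2 of 9 and 5538 of all genes were called, a log2 fold change of at least 1 left 0 of 9 and 2495, all 6 libraries in one fit left 1 of 9, and leaving out 1 library gave 0 to 5 of 9 and 3185 to 8998 of all genes, most without WT replicate 2 and fewest of all genes without ATRX KD replicate 2. Both calls of members, Cbx5 and Ehmt1, were lost without either ATRX KD replicate, and in each fit with 1 library left out the lone library of its group is assumed to vary like the pair it is compared with. Of the related genes called in ATRX KD, Fam208a, Morc2a and Prdm2 passed with every setting but the fold threshold (highest adjusted p 0.037, 0.044 and 0.039). Adnp was lost without ATRX KD replicate 2 and Kdm7a without ATRX KD replicate 1. Zfp462, Pogz, Chaf1b, Chd4, Kdm4c, Phf2 and Cbx7 were lost without either ATRX KD replicate. Across the fits, log2 fold changes ran from 0.71 to 1.095 for Adnp, 0.59 to 0.97 for Kdm7a and 0.48 to 0.62 for Zfp462. They ran from 0.32 to 0.59 for Pogz, -0.56 to -0.45 for Chaf1b and 0.31 to 0.61 for Chd4. For Kdm4c, Phf2 and Cbx7 they ran from 0.34 to 0.84, 0.51 to 0.65 and -0.66 to -0.49.

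The replicate numbers are shared by the groups, but nothing says that they pair libraries. Same-numbered WT and ATRXΔRBR libraries deviated in opposite directions (r = -0.73 across 10220 genes), WT and ATRX KD by r = -0.13, and ATRXΔRBR and ATRX KD by r = 0.16. With a replicate block, 1071 genes and 0 of 9 members were called in ATRXΔRBR, and 5792 genes and 1 of 9 members, Ehmt1, in ATRX KD, where Cbx5 (adjusted p = 0.067) and Pogz (0.053) were lost. With the pairing crossed, an alternative chosen after seeing the data, 5585 genes and 5 of 9 members were called in ATRXΔRBR, and 6465 genes and 2 of 9 in ATRX KD.

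Leaving out 1 library turned the log2 fold change of several uncalled genes. In ATRXΔRBR it ran from -0.064 to 0.33 for Setdb1, -3.835e-05 to 0.14 for Ehmt1 and -0.066 to 0.23 for Trim28. In ATRX KD it ran from -0.036 to 0.27 for Cbx1, -0.17 to 0.28 for Cbx3, -0.036 to 0.069 for Suv39h1, -0.012 to 0.39 for Setdb1, -0.27 to 0.078 for Ehmt2, -0.16 to 0.081 for Trim28 and -0.39 to 0.14 for Atrx. The cause was not tested. Of 120 fold changes of members and Atrx recomputed per comparison, 108 in ATRXΔRBR and 85 in ATRX KD kept their direction and their side of the threshold, or on the TPM scale moved by less than their SE. On the log2 TPM scale, with a pseudocount of 1 or of 0.1, Trim28 turned to -0.12 in ATRXΔRBR and 0.18 in ATRX KD, and Atrx to 1.18 in ATRX KD. The median of all genes tested moved by 0.17 and 0.22 on these scales in ATRX KD, near the value of Trim28.

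ATRX peaks at the TSS in both replicates were found for 1 member in WT and 1 in ATRXΔRBR, and with a q-value of 0.01 or less for 0 in WT. With 1 replicate in place of both, the number was 1 to 2 in either group. Counts of members with EZH2 or H3K27me3 peaks stayed within 1.5 times the main count in the alternatives run. At a q-value of 0.01 or less, 7, 4 and 2 members had an EZH2 peak in both replicates in WT, ATRXΔRBR and ATRX KD. The main counts were 7, 6 and 2. The shares of the expressed genes were 62.8%, 41.3% and 17.4%, against 75.7%, 57.2% and 26.5%. The peak files do not hold the depth of each list.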
